A study of Mus musculus with 9 samples.

Results

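The genes that call monocytes into tissue and keep the macrophages they become alive were followed in mouse melanoma tumors. They are the chemokine genes Ccl2, Ccl7, Ccl8 and Ccl12, the receptors Ccr2 and Ccr1, the growth factor Csf1 with its receptor Csf1r, and the monocyte surface gene Ly6c2. These 9 genes were chosen by symbol out of 22136 genes in the deposited tables, and all 9 had enough reads to be tested, as did 12965 genes of the whole series. The tumors were dissected from the skin of C57BL/6J mice carrying YUMMER1.7 cells, a mouse melanoma line used because the immune system recognises it. Antibody treatment of these immunocompetent hosts began at a tumor size of 20 to 50 mm3. Of the 9 libraries, 3 came from tumors given an isotype control (IgG), 3 from tumors given anti-B7-H3 and 3 from tumors given anti-PD1. B7-H3 and PD1 are checkpoint proteins that restrain immune responses. All groups share the 1 tumor line and the host strain, the labels do not give the animals' age or sex, and whole tumor pieces were used without sorting cells. Combined treatment with both antibodies was not analysed here.

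Inflammatory monocytes leave the bone marrow and enter inflamed tissue and tumors along gradients of CC chemokines, small secreted proteins named for a pair of neighbouring cysteines near their start. CCL2, CCL7, CCL8 and CCL12 bind CCR2 or related receptors, and CCR1 answers to several inflammatory CC chemokines. Once in the tissue, monocytes lose Ly6C and mature into macrophages, whose survival depends on CSF1 or IL-34 acting through the tyrosine kinase receptor CSF1R.

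The ligand genes lie in 1 cluster on chromosome 11 of the GRCm38 build, all on the plus strand. Ccl2 spans bases 82035571 to 82037453, Ccl7 82045712 to 82047525, Ccl12 82101845 to 82103400 and Ccl8 82115185 to 82116799. Because related genes can share reads, the coding stretches around their paired cysteine codons are shown, read from the GENCODE M21 transcripts 5′ to 3′, with those codons in capitals.
Ccl2: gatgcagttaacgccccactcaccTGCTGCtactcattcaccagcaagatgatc
Ccl7: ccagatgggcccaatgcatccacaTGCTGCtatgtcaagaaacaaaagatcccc
Ccl8: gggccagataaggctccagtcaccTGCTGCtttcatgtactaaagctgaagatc
Ccl12: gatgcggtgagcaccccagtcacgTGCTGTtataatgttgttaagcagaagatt
Between 20 of 54 bases (Ccl7 and Ccl8) and 35 of 54 bases (Ccl8 and Ccl12) were equal in these stretches. No 31-base word of any of the 4 coding sequences occurred in the coding sequence of another listed gene, so coding reads of that length separate the ligands. Untranslated parts were not searched. The same held for Csf1 and Csf1r. Ccr2 shared 17.2% of its words with coding sequences of other genes, and Ccr1 shared 1.74%. Ly6c2 shared 66.1% of its words with Ly6c1, Ly6a, Ly6g or Ly6i, so its value depends on how the authors' quantification split reads.

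The libraries held between 8627930 and 27288766 estimated reads, but their make-up differed by group. A set of 12 genes that share repeat sequence, called satellite genes here, took 87.0 to 92.1% of gene reads with IgG, 5.24 to 28.2% with anti-B7-H3 and 14.6 to 38.2% under anti-PD1. That left 1218985 to 3533214 reads on other genes with IgG and 5320073 to 14404557 with an antibody. Reads on 1509 olfactory and vomeronasal receptor genes, genes of smell and pheromone sensing that a tumor is not known to use, were taken as the measure of background. They came to 767 to 4969 CPM (reads scaled to a common total) outside the satellite genes with IgG, 40.4 to 198 with anti-B7-H3 and 78.1 to 280 under anti-PD1. Satellite share, reads on other genes and background thus separate every IgG library from every antibody library, and their part in a difference from IgG cannot be told apart from treatment. Of 8 melanocyte markers, 2 had enough reads to be tested, and the 8 summed to 12.6 to 32.7 CPM with IgG and 4.60 to 9.62 CPM with an antibody, so pigment cell genes were low in tumors labelled as melanoma. Levels below are CPM scaled by TMM, which sets the typical gene equal between libraries.

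In both antibody groups, 5 of the 9 genes stood higher in each of 3 libraries than in any IgG library. They were Ccl8, Ccl12, Ccr2, Ccr1 and Csf1r. Among these 5, fitted differences from IgG ranged from 1.9-fold for Csf1r to 3.8-fold for Ccl8 with anti-B7-H3, and from 1.9-fold for Csf1r to 5.8-fold for Ccl8 under anti-PD1. Csf1, Ccl2, Ccl7 and Ly6c2 overlapped with IgG in both groups. In bulk tissue, a change in the number of cells of a type cannot be told apart from a change in RNA per cell.

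None of these differences passed the threshold. With edgeR's quasi-likelihood test and Benjamini-Hochberg adjustment over all tested genes, 0 of the 9 genes had an adjusted p under 0.05 for anti-B7-H3 against IgG, where 0.555% of all genes did (1 higher and 71 lower). For anti-PD1 against IgG it was 0 of 9 beside 0.393% of all genes (1 higher and 50 lower). Between the antibodies it was 0 of 9 beside 0%. At an unadjusted p under 0.05 in the same test, 5 of 9 exceeded IgG in the anti-B7-H3 group (3.58% of all genes), 4 of 9 with anti-PD1 (7.67%) and 0 of 9 with anti-B7-H3 against anti-PD1 (3.92%). The counts against IgG hang on single libraries. Leaving out 1 library gave 0 (without anti-B7-H3 3) to 6 (without anti-PD1 2) for anti-B7-H3. For anti-PD1 it gave 1 (without anti-PD1 2) to 5 (without anti-PD1 3). By limma-voom the 2 counts against IgG were 2 and 1. Complete separation above IgG, seen in 5 of 9 genes, was found in 7.72% of all genes for anti-B7-H3 and in 11.1% for anti-PD1. DESeq2 called 0, 2 and 0 of the 9 genes in the 3 comparisons in that order, beside 496, 814 and 24 of all 12965 tested genes. Limma-voom with quality weights called 0 of the 9 in each, beside 354, 432 and 1 of all tested genes. Limma-voom also gave lower estimates than edgeR for all 9 genes in both comparisons with IgG, with a member median of 0.83 in place of 1.55 for anti-B7-H3 and 0.62 in place of 1.09 for anti-PD1. Its estimates were 0.83 for Ccl8, 1.28 for Ccl12 and 0.67 for Ly6c2 with anti-B7-H3, and 1.63 for Ccl8, 0.81 for Ccl12, 1.47 for Ccr2, 0.81 for Ccr1, 0.13 for Ccl7 and -1.06 for Ccl2 under anti-PD1. The 2 genes called by DESeq2 were Ccl8 (adjusted p = 0.00446) and Ccr2 (adjusted p = 0.00839), both higher with anti-PD1 than with IgG by DESeq2. Median log2 differences of the 9 genes were 1.55, 1.09 and 0.22, against 0.03, 0.01 and 0.01 over all tested genes. The 2 comparisons with IgG share their control libraries and are not independent of each other.

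**Figure D1:**
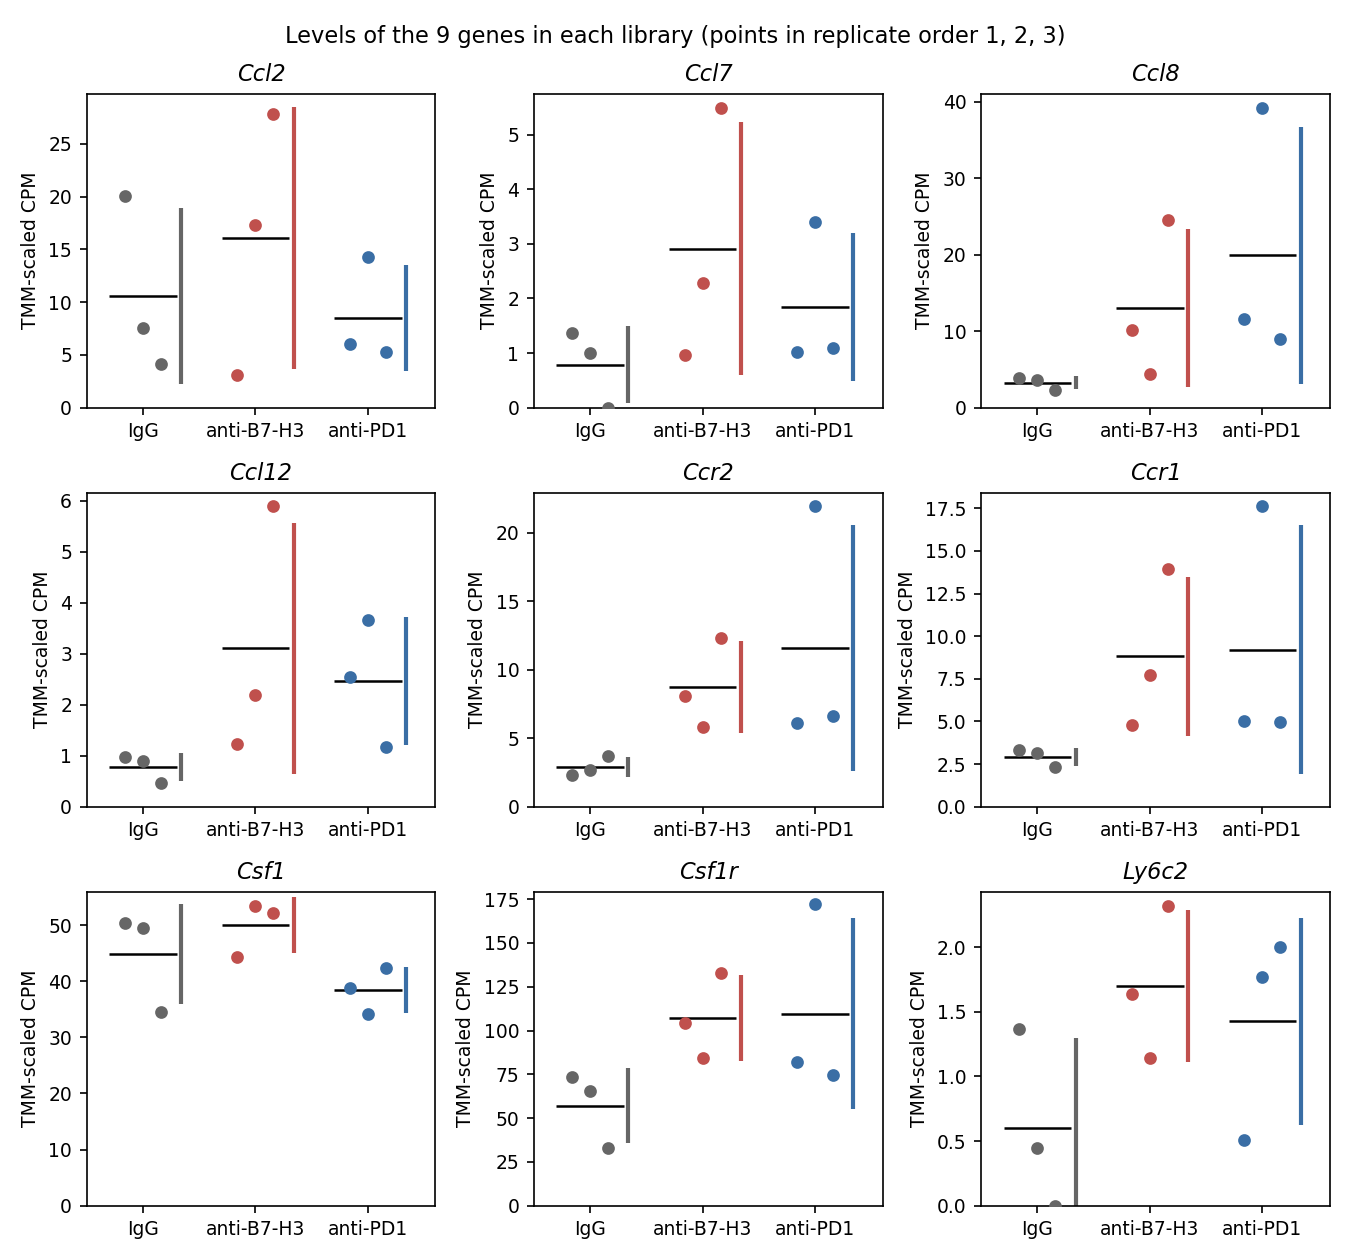
TMM-scaled CPM (linear axes from 0) of each of the 9 genes in the 3 IgG, 3 anti-B7-H3 and 3 anti-PD1 libraries, with points in replicate order, a black line at the group mean and a coloured bar of 1 SD to each side of it, stopped at 0. The third anti-B7-H3 and the second anti-PD1 library each hold the highest value of 4 genes, and the third IgG library holds the lowest value of 6.

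Ccl8, which encodes monocyte chemoattractant protein 2, showed the largest differences from IgG among the ligands. Its level was 3.89, 3.58 and 2.30 CPM in the IgG libraries 1 to 3. With anti-B7-H3 it was 10.2, 4.45 and 24.5 CPM, and under anti-PD1 11.6, 39.2 and 8.95 CPM. Every antibody library lay above every IgG library, although the lowest, anti-B7-H3 2, had a 95% Poisson interval of 3.79 to 5.19 CPM that overlaps the 2.38 to 6.01 CPM of IgG 1. Such intervals cover counting error only. Fitted log2 differences from IgG were 1.93 ± 0.83 (SE, n = 3 against 3; edgeR adjusted p = 0.466) for anti-B7-H3 and 2.54 ± 0.84 (adjusted p = 0.174) for anti-PD1. The IgG values rest on 20, 32 and 5 reads, the antibody values on 159 to 953.

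Ccl12, a mouse chemokine that acts through CCR2, was less abundant than Ccl8 per coding length in every group. It stood at 0.973, 0.894 and 0.460 CPM with IgG, from 5, 8 and 1 reads. The anti-B7-H3 libraries held 1.23, 2.20 and 5.89 CPM and the anti-PD1 libraries 2.55, 3.67 and 1.18 CPM. All antibody libraries were above all IgG libraries, but anti-PD1 3 (95% Poisson interval 0.794 to 1.68 CPM) and IgG 1 (0.316 to 2.27 CPM) were not separated beyond counting error. Fitted log2 differences from IgG were 1.89 ± 0.70 with anti-B7-H3 (edgeR adjusted p = 0.320) and 1.54 ± 0.70 under anti-PD1 (adjusted p = 0.271).

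The promoters of this pair are shown because, among the ligand genes, the reference used held promoter sequences for Ccl8 and Ccl12 only. None was available for Ccl2 or Ccl7. RefSeq on GRCm38.p6 gave promoter sequences for 6 of the 9 genes, and each run below is the 250 bases before the gene's start on the plus strand, 5′ to 3′, with searched motifs in capitals.
Ccl8, chr11:82114935-82115184: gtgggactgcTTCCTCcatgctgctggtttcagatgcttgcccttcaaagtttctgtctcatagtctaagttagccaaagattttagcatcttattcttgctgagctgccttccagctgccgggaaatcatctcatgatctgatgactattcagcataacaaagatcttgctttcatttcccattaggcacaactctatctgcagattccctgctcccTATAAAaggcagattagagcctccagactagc
Ccl12, chr11:82101595-82101844: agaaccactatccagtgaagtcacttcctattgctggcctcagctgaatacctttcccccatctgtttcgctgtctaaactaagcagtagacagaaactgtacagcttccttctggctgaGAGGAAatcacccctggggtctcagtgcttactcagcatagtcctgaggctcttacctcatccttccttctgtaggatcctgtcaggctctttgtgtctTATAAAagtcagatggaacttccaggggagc
Each window holds TATAAA, the TATA box, 32 bases before the start in Ccl8 and 31 in Ccl12, a motif that 12.4% of 32851 promoters of that length hold on either strand. Each also holds the core GAGGAA of the myeloid factor PU.1 or its reverse complement, as 23.3% of promoters do. No match was found in the pair for the NF-kB core (GGG, NN, TT, N and CC in a row, 4.11% of promoters), TGANTCA (AP-1, 6.75%), TTCNNNGAA (the STAT site GAS, 7.02%) or an interferon response element (GAAA, NN and GAAA in a row, 2.98%). Of the other members whose promoters were searched, Ccr1 and Ly6c2 held GAGGAA, and Csf1 held the NF-kB letters 154 bases before its start. Csf1r was left out of this search, so whether its promoter holds any of these motifs was not tested. Both strands were searched, and a match of letters is a description, not a site of binding.

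Ccl2, the classical ligand of CCR2, did not separate the groups. Its level was 20.1, 7.60 and 4.14 CPM with IgG, 3.07, 17.3 and 27.8 CPM with anti-B7-H3 and 6.05, 14.3 and 5.26 CPM under anti-PD1. The lowest and the highest value of all 9 libraries both lay in the anti-B7-H3 group. Fitted log2 differences from IgG were 0.55 ± 0.83 for anti-B7-H3 (edgeR adjusted p = 0.873) and -0.36 ± 0.84 for anti-PD1 (adjusted p = 0.858), and the latter became 2.91 when library totals served as scale. Without anti-B7-H3 3 the former was -0.0863.

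Ccl7, whose product binds both CCR2 and CCR1, was near its detection limit with IgG. The IgG libraries held 1.36, 1.01 and 0 CPM, from 7, 9 and 0 reads, and the count of 0 allows up to 1.38 CPM (3 reads). With anti-B7-H3 the values were 0.972, 2.28 and 5.48 CPM, and under anti-PD1 1.02, 3.41 and 1.10 CPM. Both antibody groups overlapped with IgG. The log2 difference from IgG was 1.65 ± 0.83 for anti-B7-H3 (edgeR adjusted p = 0.528) and 0.99 ± 0.84 for anti-PD1 (adjusted p = 0.557).

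The balance of Ccl8 and Ccl2 within a library needs no scaling between libraries. Of the estimated reads on these 2 genes, Ccl8 took 16.3, 32.0 and 35.7% given IgG. Its share was 76.8, 20.4 and 46.9% in the anti-B7-H3 libraries and 65.7, 73.3 and 63.0% under anti-PD1. Every anti-PD1 library lay above every IgG library in this share, and the range of the anti-B7-H3 libraries overlapped both. The exact 95% binomial interval was wide in IgG 3 (12.8 to 64.9%, from 5 and 9 reads) and narrow in anti-PD1 2 (70.7 to 75.7%). Per base of effective coding length, the log2 ratio of Ccl8 to Ccl2 was -0.34 ± 0.82 (SD, n = 3) with IgG, 0.92 ± 1.84 with anti-B7-H3 and 2.11 ± 0.36 under anti-PD1. Anti-PD1 and IgG did not overlap, with an exact two-sided permutation p of 0.1, the smallest that 3 against 3 libraries allow, and 0.375 after Benjamini-Hochberg adjustment over 30 ratio comparisons. Anti-B7-H3 and IgG overlapped (exact permutation p = 0.4). These ratios were picked after the values had been seen.

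**Figure D2:**
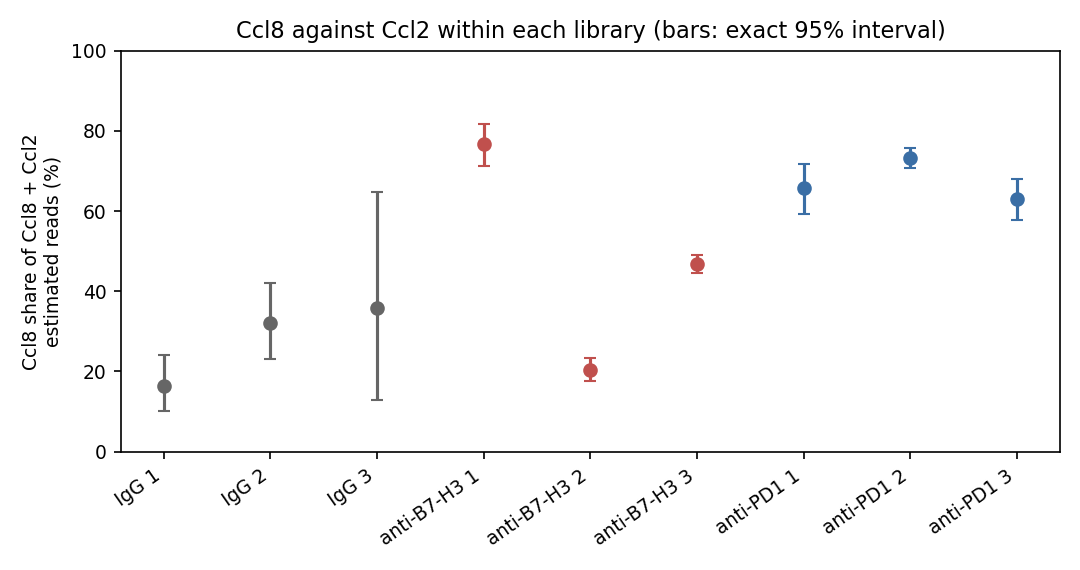
Share of Ccl8 in the estimated reads of Ccl8 and Ccl2 together (%), by library, with exact 95% binomial intervals for counting error. The 3 anti-PD1 libraries sit between 63.0 and 73.3%, the 3 IgG libraries between 16.3 and 35.7%, and the 3 anti-B7-H3 libraries between 20.4 and 76.8%.

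Ccr2, the receptor that monocytes need to leave the marrow, lies on chromosome 9 (124101950 to 124113557, plus strand). It was found at 2.34, 2.68 and 3.68 CPM with IgG. The anti-B7-H3 libraries held 8.09, 5.78 and 12.3 CPM and the anti-PD1 libraries 6.12, 21.95 and 6.63 CPM. The lowest antibody library was above the highest IgG library, but the 95% Poisson intervals of anti-B7-H3 2 (5.02 to 6.62 CPM) and IgG 3 (1.59 to 7.25 CPM) overlapped. Log2 differences from IgG were 1.66 ± 0.58 with anti-B7-H3 (3.2-fold; edgeR adjusted p = 0.304) and 2.07 ± 0.58 under anti-PD1 (4.2-fold; adjusted p = 0.120). Of all tested genes, 0.902% had a larger log2 difference than Ccr2 with anti-B7-H3 and 0.555% under anti-PD1.

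Ccr1, a receptor of monocytes, macrophages and neutrophils, lies on the minus strand of chromosome 9 (123962124 to 123968692) and was close to Ccr2 in level per coding length. Its IgG values were 3.31, 3.13 and 2.30 CPM. It reached 4.81, 7.73 and 13.9 CPM with anti-B7-H3 and 5.03, 17.6 and 4.95 CPM under anti-PD1. No antibody library fell into the IgG range, but the 95% Poisson intervals of anti-B7-H3 1 (3.89 to 5.89 CPM) and IgG 1 (1.93 to 5.30 CPM) overlapped. The log2 difference from IgG was 1.55 ± 0.62 (edgeR adjusted p = 0.391) and 1.61 ± 0.63 (adjusted p = 0.212) with anti-B7-H3 and then anti-PD1. Per effective coding length, the log2 ratio of Ccr1 to Ccr2 had means of 0.11 ± 0.58 (SD, n = 3) with IgG, 0.03 ± 0.61 with anti-B7-H3 and -0.26 ± 0.07 under anti-PD1, and all groups overlapped.

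The receptor values with IgG rest on few reads over the background. If background reads fell on a gene at the density seen on the olfactory and vomeronasal receptor genes, IgG 3 would hold 4.31 reads on Ccr1 and 4.57 on Ccr2, where 5 and 8 were counted. The corresponding Ccl12 figures in IgG 3 were 0.734 expected and 1 counted. In IgG 1, Ccr2 had 12 reads beside 3.65 expected. With an antibody, every gene of the 9 had at least 25.7 times the reads that background would give.

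Csf1r, which marks macrophages and monocytes, ranked 1 of the 9 genes per coding length with IgG. It is carried on chromosome 18 (61100598 to 61132149, plus strand), and 1 of its 3 listed transcripts took 92.8% of its reads. That transcript is 2934 bases long, but the effective length used, weighted by TPM over the transcripts, was 1259.7 bases. Listed transcripts of 309 and 417 bases, with 6.23 and 1.0% of the reads, lower that length. The rank of Csf1r depends on it, and a longer length would give a lower level. The IgG libraries held 73.4, 65.5 and 32.7 CPM, the anti-B7-H3 libraries 104, 84.5 and 133 CPM and the anti-PD1 libraries 82.0, 172 and 74.6 CPM. All antibody values were above all IgG values, with a gap between anti-PD1 3 and IgG 1 that lies within counting error (95% Poisson intervals 71.3 to 78.0 and 66.2 to 81.2 CPM). The log2 difference from IgG was 0.89 ± 0.37 with anti-B7-H3 (edgeR adjusted p = 0.405) and 0.92 ± 0.37 under anti-PD1 (adjusted p = 0.217).

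Csf1, the ligand of that receptor, lies on the minus strand of chromosome 3 (107741048 to 107760469) and spanned the narrowest range of log2 levels among the 9 genes. Of its 5 listed transcripts, 1 took 92.4% of its reads. Its values were 50.4, 49.5 and 34.5 CPM with IgG, 44.3, 53.4 and 52.2 CPM with anti-B7-H3 and 38.8, 34.2 and 42.3 CPM under anti-PD1. The log2 difference from IgG was 0.15 ± 0.19 with anti-B7-H3 (edgeR adjusted p = 0.848) and -0.23 ± 0.19 under anti-PD1 (adjusted p = 0.534), the latter 2.90 with library totals as scale. Il34, the other CSF1R ligand, had log2 differences of 0.25 ± 0.26 and -0.44 ± 0.27 in the same order (adjusted p = 0.789 and 0.400).

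Receptor and ligand of the CSF1 axis were set against each other within each library. Csf1r took 59.3, 56.95 and 48.6% of the reads of Csf1r and Csf1 together in the IgG group, 70.2, 61.3 and 71.8% with anti-B7-H3 and 67.9, 83.45 and 63.8% under anti-PD1. Every antibody library had a higher share than every IgG library, although the exact 95% binomial intervals of anti-B7-H3 2 (59.9 to 62.6%) and IgG 1 (55.3 to 63.1%) overlapped. The log2 ratio per effective coding length was 0.27 ± 0.33 (SD, n = 3) with IgG, 1.06 ± 0.37 with anti-B7-H3 and 1.39 ± 0.81 under anti-PD1. The effective length of each gene was the same for all libraries, so its choice shifts these ratios equally in every group. For each antibody against IgG the exact two-sided permutation p was 0.1, the smallest possible, and 0.375 after adjustment over the 30 ratio comparisons.

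Ly6c2, which encodes the Ly6C protein used to sort inflammatory monocytes, lies on chromosome 15 (75108158 to 75111970, minus strand) and was the least abundant gene per coding length in every group. It was found at 1.36, 0.447 and 0 CPM with IgG, from 7, 4 and 0 reads, with an upper limit of 1.38 CPM for the 0 (3 reads). The anti-B7-H3 libraries held 1.64, 1.14 and 2.31 CPM and the anti-PD1 libraries 0.510, 1.77 and 2.00 CPM. Both groups overlapped with IgG, at log2 differences of 1.32 ± 0.75 (edgeR adjusted p = 0.577) and 1.09 ± 0.75 (adjusted p = 0.458).

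The 2 antibody groups were then set against each other, a comparison in which satellite share and background overlap between groups. Csf1 was the 1 gene of 9 with every anti-B7-H3 library above every anti-PD1 library, a pattern that 7.55% of all genes showed. It stood at 50.0 ± 4.98 CPM (SD, n = 3) with anti-B7-H3 and 38.4 ± 4.06 CPM under anti-PD1, and the log2 difference was 0.38 ± 0.19 (edgeR adjusted p = 0.754). Ccl2 had the largest positive estimate of the 9 genes (0.91 ± 0.79) and Ccl8 the largest negative one (-0.61 ± 0.69), and neither was clear of its spread (adjusted p = 0.820 and 0.862). Ccr1 (-0.06 ± 0.51) and Csf1r (-0.03 ± 0.36) had estimates near 0 whose signs turned under limma-voom (0.46 and 0.16) and with library totals as scale (0.12 and 0.13). A p that misses the threshold does not show that the 2 antibodies gave equal levels.

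**Figure D3:**
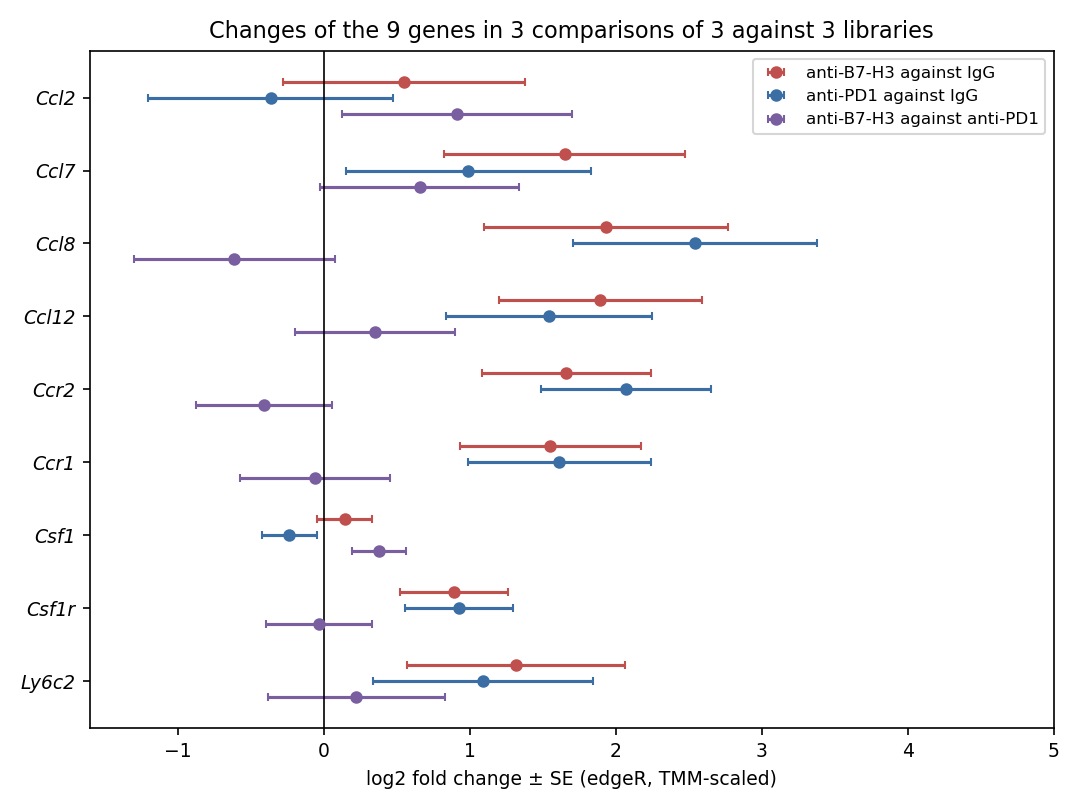
Log2 fold changes (x axis) with standard errors of the 9 genes for anti-B7-H3 against IgG, anti-PD1 against IgG and anti-B7-H3 against anti-PD1, from the edgeR model of all 9 libraries. Against IgG the estimates of Ccl8, Ccl12, Ccr2 and Ccr1 lie between 1.54 and 2.54, those of Csf1r at 0.89 and 0.92 and those of Csf1 at 0.15 and -0.23, and no estimate passed an adjusted p of 0.05.

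Levels of different genes were compared as CPM per kb of effective coding length. For Csf1r that length (1259.7 bases) is far below the 2934 bases of its main transcript, so its place in these orders depends on the weighting. With IgG the order began with Csf1r (45.4 ± 17.1; SD, n = 3), Ccl2 (38.0 ± 30.01), Csf1 (36.1 ± 7.19) and Ccl8 (24.3 ± 6.29), and went on with Ccl7 (5.93 ± 5.30), Ccl12 (5.08 ± 1.81), Ccr1 (3.25 ± 0.60), Ccr2 (3.05 ± 0.73) and Ly6c2 (2.61 ± 3.01). Neighbours from Csf1r to Csf1, Ccl7 and Ccl12, and Ccr1 to Ly6c2 differed by less than the larger of their SDs, whereas the steps from Csf1 to Ccl8, Ccl8 to Ccl7 and Ccl12 to Ccr1 exceeded it. Ccl8 came first with anti-B7-H3 (97.3 ± 77.1) and under anti-PD1 (149 ± 125), ahead of Csf1r (85.1 ± 19.4 and 87.1 ± 43.2), by less than its SD in both. Ccl2 ranked 3 with anti-B7-H3 (57.6 ± 44.5) and 4 under anti-PD1 (30.6 ± 18.0).

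High values came repeatedly from the same libraries. Anti-B7-H3 3 held the highest value of 4 genes (Ccl2, Ccl7, Ccl12 and Ly6c2) and anti-PD1 2 of 4 others (Ccl8, Ccr2, Ccr1 and Csf1r). Without anti-PD1 2 the log2 difference between anti-PD1 and IgG was 1.58 for Ccl8, 1.22 for Ccr2, 0.73 for Ccr1, 0.44 for Csf1r, 1.13 for Ccl12, 0.20 for Ccl7 and -0.96 for Ccl2. Leaving out anti-B7-H3 3 gave 1.09 for Ccl8, 1.05 for Ccl12, 0.84 for Ccl7, 1.33 for Ccr2, 1.07 for Ccr1 and 0.71 for Csf1r for anti-B7-H3 against IgG. With the receptor gene background as a covariate, 6 of the 9 estimates for anti-B7-H3 against IgG turned negative (Ccl2, Ccl7, Ccl12, Ccr1, Csf1 and Csf1r), as did 3 for anti-PD1 against IgG (Ccl7, Ccl12 and Ccr1). The estimates positive in both comparisons were 0.20 and 1.09 for Ccl8, 0.53 and 1.11 for Ccr2 and 0.29 and 0.23 for Ly6c2, for anti-B7-H3 and then anti-PD1, all smaller than without the covariate and with no adjusted p under 0.05. Because this background separates every IgG library from every antibody library, the model cannot divide it from treatment. These values are therefore not background-corrected differences.

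Genes around this pathway gave 0 calls in all 3 comparisons by edgeR, and their counts at an unadjusted p under 0.05 follow by direction. Over all tested genes, 3.58% were higher and 6.93% lower at that p with anti-B7-H3 than with IgG, 7.67% higher and 10.8% lower under anti-PD1, and 53.3 and 50.5% had positive differences. Among 9 tested CC chemokine genes and receptors, all 9 had positive log2 differences with anti-B7-H3 (median 0.71; 2 higher and 0 lower at that p) and 7 under anti-PD1 (median 0.41; 1 higher and 0 lower). DESeq2 called 1 of them in the first comparison and 0 in the second, and limma-voom 0 in either. Over all 12965 tested genes, DESeq2 called 496 and 814 in these 2 comparisons, and limma-voom 354 and 432. Ccl6, a chemokine of mouse myeloid cells, differed by 2.10 ± 0.85 with anti-B7-H3 and 1.96 ± 0.85 under anti-PD1 (edgeR adjusted p = 0.404 and 0.261). Ccl9, another of them, differed by 2.02 ± 1.14 and 2.21 ± 1.14 (adjusted p = 0.582 and 0.336).

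Growth factor and inducer genes had a different split of signs. Of 14 tested genes of the myeloid growth factor axis, 9 were positive with anti-B7-H3 (median 0.14) and 3 under anti-PD1 (median -0.41). At an unadjusted p under 0.05, 2 were higher and 1 lower with anti-B7-H3, and 0 higher and 4 lower under anti-PD1. DESeq2 called 0 in each, and limma-voom 0 and 1. Cebpa, a transcription factor of myeloid precursors, differed by -0.66 ± 0.29 and -0.91 ± 0.29 (edgeR adjusted p = 0.431 and 0.144), and Csf2ra, the GM-CSF receptor alpha chain, by -0.01 ± 0.31 and -0.83 ± 0.32 (adjusted p = 0.998 and 0.201). Csf2rb, the beta chain, differed by 0.66 ± 0.23 and 0.20 ± 0.23 (adjusted p = 0.276 and 0.672). Of 10 tested inducers of these chemokines, such as Tnf, Il1b and the NF-kB subunits, 9 were positive with anti-B7-H3 (median 0.59) and 3 under anti-PD1 (median -0.13), with 0 called by DESeq2 or limma-voom. At an unadjusted p under 0.05 there were 0 with anti-B7-H3 and 1 under anti-PD1, the NF-kB subunit gene Rela, which had lower values (-0.20 ± 0.19 and -0.43 ± 0.19; edgeR adjusted p = 0.773 and 0.266). Nfkb1, another subunit, differed by 0.40 ± 0.18 and 0.21 ± 0.18 (adjusted p = 0.477 and 0.572). All 10 were positive for anti-B7-H3 against anti-PD1 (median 0.52), where 51.1% of all tested genes were. So were 13 of the 14 growth factor genes (median 0.56) and 7 of the 9 chemokine genes and receptors (median 0.38). In that comparison the chemokine, growth factor and inducer lists had 1, 5 and 0 genes higher and 0 lower at an unadjusted p under 0.05 by edgeR (3.92 and 2.56% of all genes), and 0 calls by edgeR, DESeq2 and limma-voom. Irf1, an interferon-induced factor, differed by 0.78 ± 0.36 with anti-B7-H3 and 0.16 ± 0.36 under anti-PD1 (edgeR adjusted p = 0.495 and 0.846).

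Marker genes of the cells that carry these receptors were examined beside them. Of 15 tested monocyte markers, 13 were positive with anti-B7-H3 (median 0.92; 5 higher and 0 lower at an unadjusted p under 0.05) and 11 under anti-PD1 (median 0.60; 3 higher and 1 lower), with 0 called by edgeR, 1 by DESeq2 and 0 by limma-voom in each. Itga4, the integrin alpha 4 chain that monocytes use to leave vessels, differed by 1.24 ± 0.32 and 0.84 ± 0.33 (edgeR adjusted p = 0.129 and 0.207). Nr4a1, a nuclear receptor that patrolling monocytes need, had the smallest p of the list under anti-PD1 and differed the other way, by -0.59 ± 0.28 and -0.92 ± 0.28 (adjusted p = 0.495 and 0.135). S100a4 differed by 0.22 ± 0.24 and 0.74 ± 0.24 (adjusted p = 0.801 and 0.151). Of 19 macrophage markers, all tested, 16 and 15 were positive (medians 0.68 and 0.37). Of the 19, 4 were higher and 1 lower at an unadjusted p under 0.05 with anti-B7-H3, and 2 higher and 2 lower under anti-PD1, with 0 called by edgeR and 1 each by DESeq2 and limma-voom in both comparisons. Adgre1, which encodes F4/80, differed by 1.46 ± 0.49 and 1.31 ± 0.49 (adjusted p = 0.276 and 0.199), and the mannose receptor gene Mrc1 by 1.49 ± 0.55 and 1.75 ± 0.56 (adjusted p = 0.342 and 0.154). Maf, a transcription factor of macrophages, differed the other way, by -0.63 ± 0.28 and -0.79 ± 0.28 (edgeR adjusted p = 0.439 and 0.173).

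Summed over the list, monocyte markers came to 259 to 329 CPM with IgG, 332 to 594 with anti-B7-H3 and 330 to 682 under anti-PD1, and the lowest antibody library (330.1, anti-PD1 3) was level with the highest IgG library (329, IgG 3). Macrophage markers came to 535 to 1058, 951 to 1351 and 750 to 1798 CPM, and overlapped. T and NK cell markers, 11 tested of 12, stood at 10.5 to 26.3, 15.8 to 33.4 and 10.4 to 17.7 CPM. Neutrophil markers, which bear on Ccr1, had 1 of 9 genes tested, and their sums were 46.9 to 82.5, 47.0 to 69.0 and 37.7 to 70.0 CPM. That tested gene, Mmp9, made up most of these sums, with 79.6 of 82.5 CPM in IgG 1. In the monocyte list, Ace and S100a4 held 117 and 111 of the 329 CPM of IgG 3. Such sums follow their most abundant genes and are not levels of a cell type. Fibroblast and endothelial markers, 11 of 11 tested, came to 2808 to 7791, 5404 to 8667 and 4401 to 6279 CPM.

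Markers of other tissues also varied. The 10 skeletal muscle markers, all tested, came to 111, 174 and 162 CPM with IgG, 777, 25.4 and 3515 CPM with anti-B7-H3 and 235, 1641 and 1271 CPM under anti-PD1. Median log2 differences from IgG were 3.72 and 3.77, with 0 calls by edgeR, DESeq2 or limma-voom and 0 at an unadjusted p under 0.05. The libraries with the highest muscle sums, anti-B7-H3 3 and anti-PD1 2, are those with the highest values of 8 of the 9 genes. The part of muscle tissue in the differences of these genes was not tested. Adipocyte and erythroid markers (7 tested of 9) ran from 68.7 to 359 CPM with IgG and from 22.1 to 57.6 CPM with an antibody, and keratinocyte markers (1 of 8 tested) from 12.7 to 35.9 and from 0.667 to 2.99 CPM. Dendritic and B cell markers (6 of 10 tested) overlapped between groups, at 4.80 to 19.8 CPM with IgG and 4.88 to 7.94 CPM with an antibody. Of these lists, edgeR called Slc24a5, a melanosome gene, lower with both antibodies (log2 differences -7.19 ± 0.87 and -6.32 ± 0.85, adjusted p = 0.006 and 0.013) and the beta-globin gene Hbb-bt lower with anti-B7-H3 (-2.21 ± 0.42, adjusted p = 0.048). In each comparison with IgG, 5 of the 7 adipocyte and erythroid markers were lower at an unadjusted p under 0.05 by edgeR. DESeq2 called 5 of these 7 in each and limma-voom 1. Both tools also called the 1 tested keratinocyte marker, Dsp (edgeR log2 differences -4.08 ± 0.79 and -3.78 ± 0.79). No marker gene of any list was at 0 in all libraries.

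**Figure D4:**
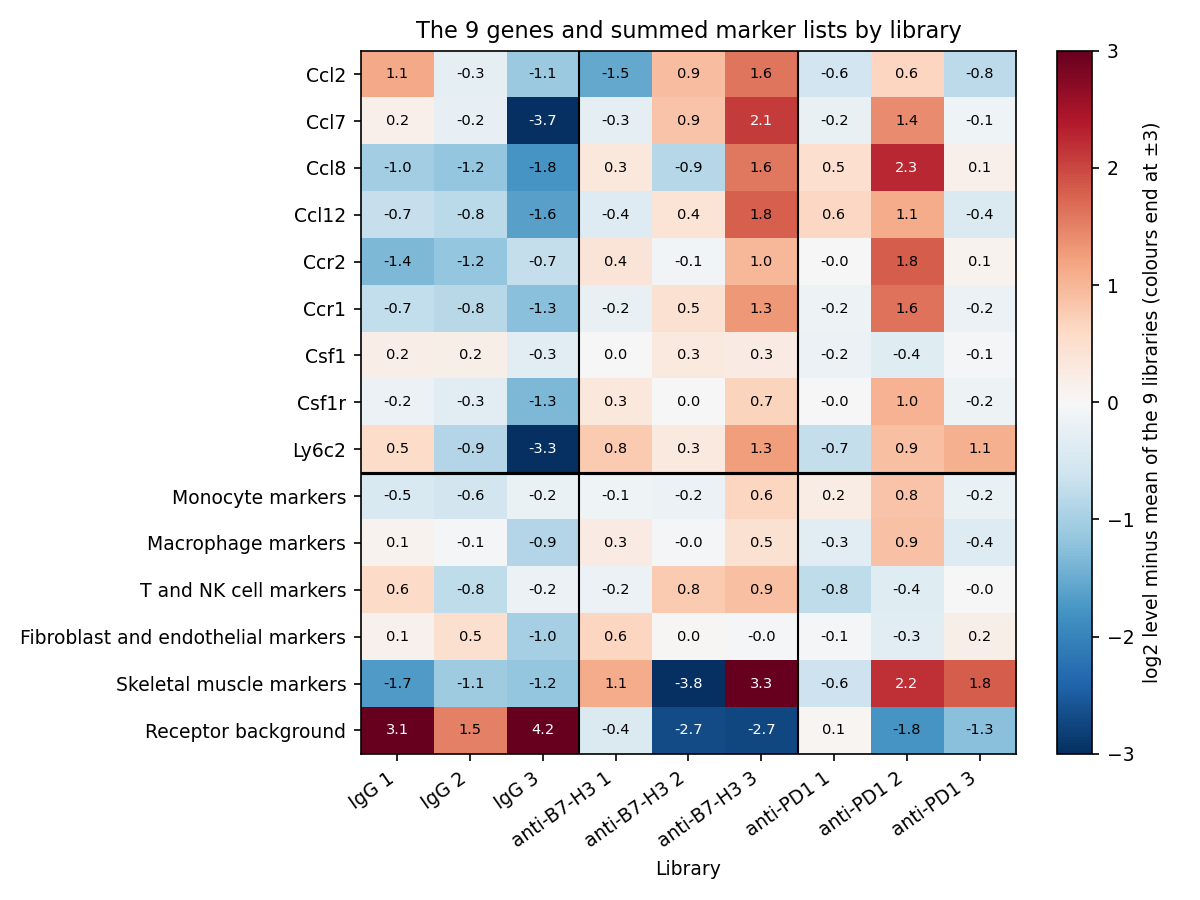
Log2 level of each of the 9 genes, of 5 summed marker lists and of the olfactory and vomeronasal receptor background in each library, minus the mean of the 9 libraries, with colours ending at 3 in either direction. Ccl8, Ccl12, Ccr2, Ccr1 and Csf1r are below 0 in every IgG library, the muscle list reaches 3.3 in anti-B7-H3 3 and -3.8 in anti-B7-H3 2, and the background is above 1.5 in each IgG library.

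Across the 9 libraries the genes fell into different patterns, given as Pearson r of log2 CPM and as a description, since the libraries share treatment groups, depth and background. Ccl8 followed Ccr2 (r = 0.919, n = 9 libraries), Ccr1 followed Ccl12 (0.924) and Ccr2 (0.895), and Ccl7 followed Csf1r (0.900). The r of Ccl7 leans on IgG 3, where it had 0 reads. Ccl2 ran apart from Ccl8 (0.289) and Ccr2 (0.177). Csf1 ran apart from its receptor (0.137) and from Ccr2 (-0.323).

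The genes most like each member, by the same r among tested genes with a mean of at least 1 log2 CPM, were then listed. The nearest to Ccl8 were Lyz2, the lysozyme gene of monocytes and macrophages (r = 0.981), Sqor (0.981), Ccl6 (0.969) and Mrc1 (0.969). Ccr1 was closest to Ms4a6c (0.991), Ifngr1, an interferon gamma receptor chain (0.986), and Cd53, a leukocyte tetraspanin (0.985). Ccr2 was closest to Commd2 (0.988) and Suclg1 (0.971), genes expressed in most cell types. Ccl7 had the lysosomal genes Psap (0.988) and Ctsz (0.985) near it, with Cd300c2 (0.986), Atp6v1b2 (0.985) and Slc43a2 (0.980). Ccl12 was nearest to Ctsb (0.978), another lysosomal gene. Next to it came Tspan31 (0.970), Mcfd2 (0.9665), Tmed7 (0.966) and Atp1b3 (0.966). Csf1r was nearest to Crip1 (0.984) and Sirpa, the myeloid receptor for CD47 (0.978), with Dpt (0.975) and Nfs1 (0.971) also near. Ly6c2 was nearest to Cd74, the invariant chain of antigen presentation (0.970). After it came Mis18a (0.968), Actr1b (0.961), Reep4 (0.954) and Ccdc22 (0.951). Csf1 had Aars (0.985) and Il34 (0.982) among its nearest genes. Ccl2 had Ackr3, a decoy chemokine receptor, at the top (0.95). Each of these values is among the highest found in a search over all such genes with 9 points. Ccl7 and Ly6c2 had 0 reads in IgG 3, so their log2 values there were set by the prior count added before taking logs. Relative to the mean of the 9 libraries these values were -3.66 and -3.28, so the r of both genes leans on that library.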

How the data were processed

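Whole-tumor RNA, depleted of ribosomal RNA, was sequenced in 9 libraries. Per the file headers, the authors deposited estimated counts per transcript (not normalized) and TPM, which they scaled by effective length. The sources used here do not give the quantifier. FastQC 0.11.8 and GRCm38 are named per the submitters' processing notes. TPM was not used for tests. Estimated counts were summed per gene over 57409 of 58083 transcripts matched to GENCODE M21 and rounded. The unmatched transcripts held 0.105 to 0.369% of reads. Listed lengths were coding lengths within 3 bases for 94.1% of 57298 transcripts. Satellite genes were those whose transcripts shared over 30% of 15-base words with the most-read transcript. That this sequence is the major satellite repeat is taken from an earlier analysis of these data.

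One edgeR 4.0.16 quasi-likelihood model (R 4.3.3; TMM; filterByExpr; group only) was fitted to 9 libraries, and p-values were adjusted by Benjamini-Hochberg over 12965 genes, with 0.05 as the threshold. The script was tested on simulated data. Alternatives used DESeq2 1.42.0, limma 3.58.1 (voom), other scales and filters, a background covariate, a replicate block and left-out libraries. All 9 members are named, with up to 3 list genes of smallest p or any past the threshold, and the nearest genes by r. One gene that this rule would name is not reported here. Members and lists were chosen with earlier results of these data known. No label says that replicates are separate mice, so a p-value reflects no more than the spread among these samples, which may be technical.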

Additional observations from a re-analysis of the deposited data

How the results depend on the processing

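The number of genes called by edgeR was 72 for anti-B7-H3 against IgG. It was 51 for anti-PD1 against IgG. Between the antibodies it was 0, with 508 genes higher and 332 lower at an unadjusted p under 0.05. In that order it was 496, 814 and 24 with DESeq2, and 354, 432 and 1 with limma-voom. Without a filter on low counts it was 1097, 731 and 4. For the 2 comparisons with IgG it was 118 and 19 with reads outside satellite genes as scale, 3 and 10 with a minimum count of 30, 20 and 88 with only the libraries compared, and 0 and 6 with the background covariate. Leaving out 1 library gave 8 to 441 calls for anti-B7-H3 against IgG and 9 to 432 for anti-PD1 against IgG, both highest without IgG 2. Every left-out library but anti-PD1 1 moved the first count beyond 1.5 times, and every one but anti-B7-H3 3 the second. With library totals as scale the calls were 12531, 12335 and 24, all 9 members were called in both comparisons with IgG, and the median gene moved by 3.37, 3.15 and 0.20. DESeq2 called 2 members for anti-PD1 against IgG. The cause of these shifts was not tested.

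Same-numbered libraries correlated between -0.324 and 0.180 in their deviations from the group mean, and differently numbered ones between -0.434 and 0.522. With 3 libraries a group, such values cannot show whether the numbers pair the libraries. The labels state no pairing, and the main model used none. With the replicate block, anti-PD1 against IgG had 124 calls, whereas Ccr1 and Csf1r turned to 0.0521 and 0.0777 between the antibodies.

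Signs of single members turned as follows. With the background covariate, anti-B7-H3 against IgG gave -3.25 for Ccl2, -2.06 for Ccl7, -0.29 for Ccl12, -0.93 for Ccr1, -0.33 for Csf1 and -0.18 for Csf1r. Anti-PD1 against IgG gave -1.88 for Ccl7, -0.0533 for Ccl12 and -0.39 for Ccr1. Anti-B7-H3 against anti-PD1 gave -0.024 for Ccl2, -0.18 for Ccl7 and -0.23 for Ccl12. Background separates IgG from antibody libraries, so the covariate values against IgG are not background-corrected differences. With library totals, anti-PD1 against IgG gave 2.91 for Ccl2 and 2.90 for Csf1, whereas anti-B7-H3 against anti-PD1 gave 0.12 for Ccr1 and 0.13 for Csf1r. Limma-voom gave 0.46 for Ccr1 and 0.16 for Csf1r between the antibodies. Leaving out 1 library moved Ccl2 from -0.0863 to 1.36 for anti-B7-H3 against IgG and from -0.96 to 0.45 for anti-PD1 against IgG. Between the antibodies the left-out range was -0.51 to 0.78 for Ccl12, -0.17 to 1.46 for Ccl7, -1.46 to 0.36 for Ccl8, -0.55 to 0.84 for Ccr1, -0.75 to 0.46 for Ccr2, -0.25 to 0.46 for Csf1r and -0.16 to 0.54 for Ly6c2. Low read counts in the IgG libraries limit Ccl7, Ccl12 and Ly6c2 most.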
